A study of Mus musculus with 8 samples.

Results

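Macrophages are the main resident immune cells of fat, and 34 of their marker genes were followed in the perivascular fat around the thoracic aorta of mice. The 34 genes were a fixed set of names, and each was read from the probe set that the array's annotation assigns to it alone. All 34 had such a probe set, 1 each, among 18782 genes with a probe set of their own. The study compared 4 samples labelled RictoraP2KO with 4 control samples of the genotype Rictorfl/fl, each on 1 array. The labels give all 8 as male mice aged 17 to 22 weeks, starved overnight and killed at 9 am, with no treatment. The name RictoraP2KO points to Cre under the promoter of aP2 (Fabp4), a gene of fat cells that macrophages express too, and the series title names brain and fat as the sites of deletion. Rictor encodes the defining subunit of the kinase complex mTORC2. Neither the deleted exons nor the presence of Cre in the controls is stated in the labels.

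Tissue macrophages live on the growth factor CSF1, which they sense through the receptor CSF1R, and their identity genes depend on the transcription factor PU.1. In fat they clear dead cells and debris and take up lipid. A resident type carries the mannose receptor, CD163, LYVE1 and the folate receptor FOLR2, whereas cells recruited in obesity carry CD11c and the lipid-associated receptor TREM2. Most of these genes are shared with other myeloid cells to some degree, and Lyve1 is also a marker of lymphatic endothelium.

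All values are log2 RMA signals, and a difference is the mean of the RictoraP2KO arrays minus that of the control arrays. The label of the arrays was not borne out by Rictor itself. Its signal was 6.68 ± 0.08 (SD, n = 4) in arrays labelled RictoraP2KO and 6.54 ± 0.06 (SD, n = 4) in control arrays, a difference of 0.14 (SE 0.063; limma adjusted p = 0.685). Where this probe set lies relative to the deleted part is not known, so it may check nothing, and every direction here rests on the labels. Fat genes were strong in both groups, with Adipoq at 10.96 and 10.94 and the brown fat gene Ucp1 at 11.74 and 11.67. Signal of foreign tissue stood out in single arrays, measured as the mean deviation of a marker list from its mean over the 8 arrays. Skeletal muscle genes stood at 1.22 in RictoraP2KO replicate 2, lung epithelial genes at 2.21 in control replicate 2 and neuron genes at 1.37 in control replicate 3. Cardiac muscle genes stood lowest in RictoraP2KO replicate 1, at -1.12, and highest in replicate 2 of that group, at 1.39.

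The macrophage genes as a set stood slightly above the control level in the arrays labelled RictoraP2KO, but no member passed the test. Differences were above 0 for 30 of the 34 members and below 0 for 4, with a median of 0.27. Over all genes 46.8% were above 0 and the median was -0.01. The limma adjusted p was under 0.05 for 0 members, against 0.00352% of all 28371 probe sets, and the adjusted p-values of the members ran from 0.649 to 0.995. At an unadjusted limma p under 0.05 there were 5 members, or 14.7% of them, against 7.27% of all probe sets. All 5, namely Mrc1, Mpeg1, Fcgr3, Timd4 and C1qb, were higher. Of all probe sets 3.85% were higher and 3.42% were lower at that p. Of the 18782 genes, each read from 1 probe set, 548 were higher and 669 lower. In no member were the 2 groups without overlap. RictoraP2KO was higher without overlap in 2.08% of all probe sets, and for 34 members a count of 0 is near what that share gives. In bulk tissue, more macrophages, more RNA of these genes per macrophage and RNA from other leukocytes that share them cannot be told apart.

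Sizes were small throughout. A total of 22 members had a difference of at least 0.2 and under 0.4, and 3 members exceeded that band: Mpeg1, Adgre1 and Mrc1. The other 9 lay within 0.2 of 0. Standard errors ran from 0.061 to 0.258, and the 95% interval of the difference included 0 for 29 members.

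**Figure D1:**
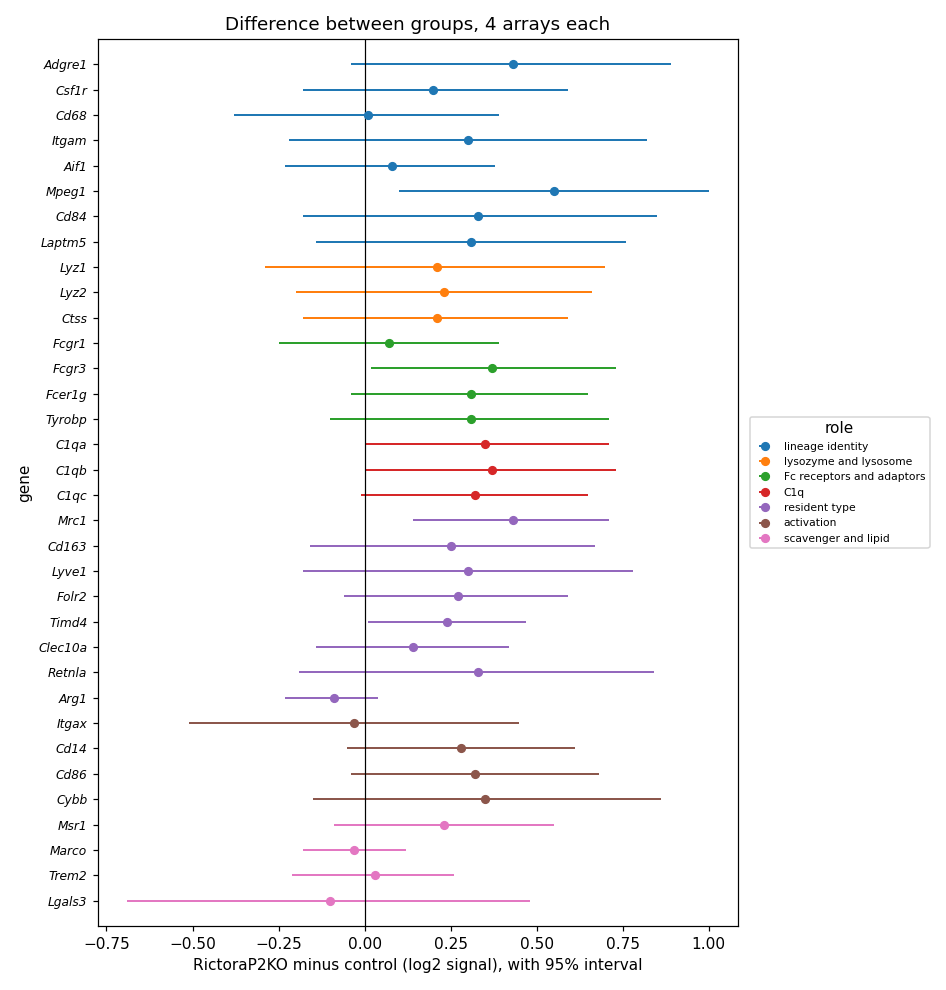
Each point is the difference of 1 gene, arrays labelled RictoraP2KO minus control arrays on the log2 scale, with its 95% limma interval (4 arrays per group) and coloured by role. Of the 34 points 30 lie above 0, and most intervals cross 0.

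Most members shared an order over the arrays. RictoraP2KO replicate 1 was the highest of the 8 arrays for 22 members, and its mean deviation over the 34 members was 0.32. RictoraP2KO replicates 2 and 4 followed at 0.22 and 0.15. RictoraP2KO replicate 3 went against the rest of its group. It stood at -0.24, below control replicates 2 and 3 at -0.22 and -0.21, and was the lowest of the 4 RictoraP2KO arrays for 29 members. Only Cd86 reached its own 8-array mean in it, and 23 members were below the control mean there. Among the controls, replicate 1 was the highest at 0.07 and replicate 4 stood at -0.11. So 3 of the 4 RictoraP2KO arrays were above all 4 controls and the fourth was below them all.

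**Figure D2:**
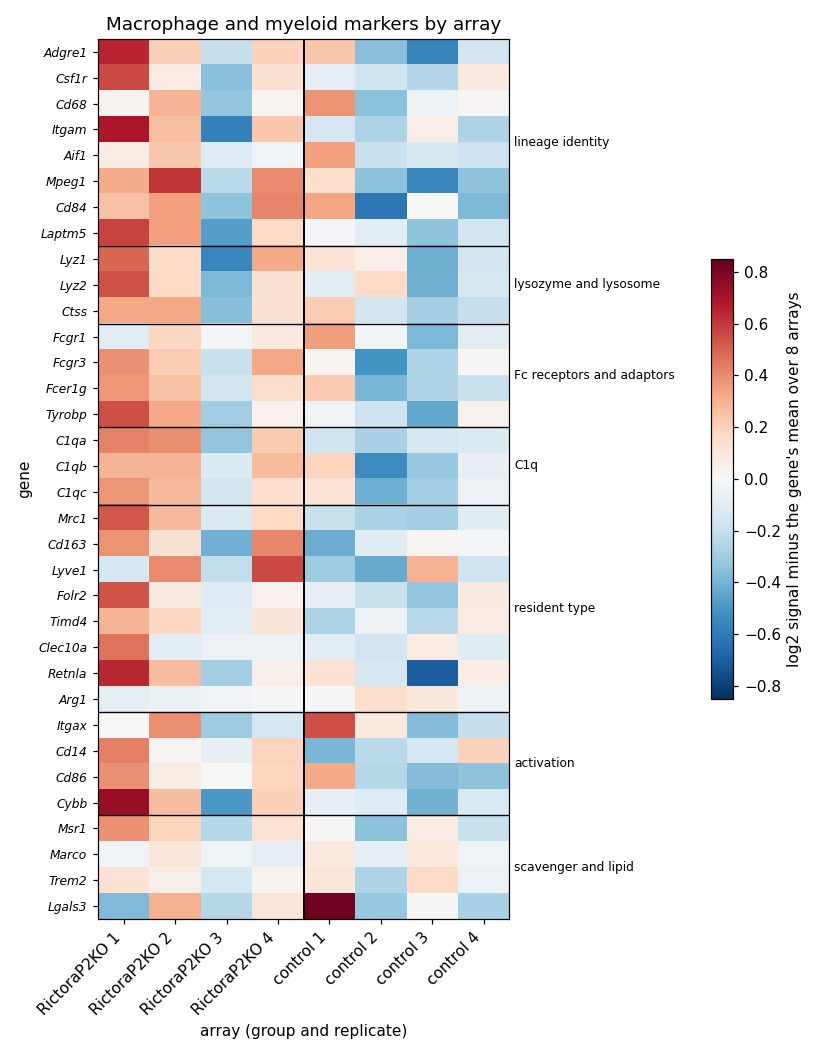
Colour gives the log2 signal of each gene minus its mean over the 8 arrays, with genes in rows by role and arrays in columns. RictoraP2KO replicate 1 is red and replicate 3 blue for most genes, and control replicate 1 is red for Lgals3 and Itgax.

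The count of members at an unadjusted p under 0.05 varied with the array left out. Without RictoraP2KO replicate 3, 21 members had an unadjusted limma p under 0.05, all higher, against 4.44% of all probe sets. The median difference was then 0.40. In 14 members, among them Mrc1, Mpeg1, Tyrobp, Cybb and the 3 C1q genes, RictoraP2KO replicates 1, 2 and 4 all exceeded every control array, as in 4.43% of all probe sets. Still 0 members passed after adjustment, with a smallest limma adjusted p of 0.267 for C1qa. This array was singled out after its values for these genes were seen. Without RictoraP2KO replicate 1 the median was 0.17 and 2 members had an unadjusted p under 0.05, both higher, against 3.91% of all probe sets. That count was 10 when control replicate 1 was left out, 5 for control replicate 4 and 2 for control replicate 2. The shares of all probe sets, counting those higher, were 3.73%, 3.18% and 2.91%. The count was 1 when RictoraP2KO replicate 2 or 4, or control replicate 3, was left out. There the shares were 3.27%, 3.34% and 3.48%. Counts of 1 or 2 members are near what such shares give. With RictoraP2KO replicate 2, control replicate 2 and control replicate 3 all left out, the arrays with muscle, lung or neuron signal, the median was 0.15, 26 members were above 0 and the count was 0, against 2.21% of all probe sets.

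The signal was well within range for most members. In all 8 arrays 27 members were above the array median of 3.76, and Cd84 and Fcgr1 were above it in some. Aif1, Arg1, Itgax, Cd86 and Marco were below it in every array, so their differences rest on weak signal. Arg1 belongs to the resident markers, and Itgax, Cd86 and Marco to the inflammatory ones, as does Fcgr1.

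Promoters of a few members are shown because PU.1 recognises a purine-rich motif with GGAA at its centre. Of the 34 members, 24 had an entry in the set of RefSeq promoters used (GRCm38.p6), and absence from it says nothing of RefSeq itself. Adgre1, Arg1, C1qa, Cd14, Cd86, Clec10a, Csf1r, Lyve1, Msr1 and Tyrobp were not matched. Within the 250 bases before the start, the letters GAGGAA occurred on either strand in 13 of the 24 members, or 54.2%, and in 25.9% of 27025 genes. The longer form AGAGGAAGT, which contains the shorter, occurred in 0 of the 24 and in 0.94% of genes. Below are the 100 bases before the start, written along the gene's strand, with GAGGAA or its reverse complement in capitals. Mrc1 and C1qb were 2 of the 5 members at an unadjusted p under 0.05, and Itgam and Laptm5 were among the 14 whose RictoraP2KO replicates 1, 2 and 4 exceeded all controls:
Mrc1, chr2:14229314-14229413, plus strand: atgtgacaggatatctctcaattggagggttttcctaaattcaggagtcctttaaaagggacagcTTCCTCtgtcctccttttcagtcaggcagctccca
C1qb, chr4:136886201-136886300, minus strand: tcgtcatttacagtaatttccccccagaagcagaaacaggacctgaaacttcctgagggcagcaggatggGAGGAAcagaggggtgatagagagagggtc
Itgam, chr7:128062540-128062639, plus strand: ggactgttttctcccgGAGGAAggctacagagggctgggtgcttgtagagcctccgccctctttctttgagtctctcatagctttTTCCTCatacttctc
Laptm5, chr4:130913216-130913315, plus strand: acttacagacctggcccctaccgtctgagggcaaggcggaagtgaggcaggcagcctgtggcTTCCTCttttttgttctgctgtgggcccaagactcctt

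The matches began 35 bases before the start in Mrc1, 30 in C1qb and 38 in Laptm5, and Itgam had matches at 84 and 15 bases. The 4 promoters were chosen for holding a match. Of the other members at an unadjusted p under 0.05, Fcgr3 held GAGGAA in its 250 bases, and Timd4 and Mpeg1, which had the largest difference of the 34, held none. Nor did Lyz1, Cd163 and Cybb of the 14. A match is a run of letters and not a bound site.

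Of the 8 lineage identity genes, all 8 had a difference above 0, with a median of 0.31, and 0 passed the test. Mpeg1 encodes perforin-2, a pore-forming protein of phagocytes. Its signal was 5.78, 6.07, 5.23 and 5.86 in RictoraP2KO replicates 1 to 4 and 5.61, 5.11, 4.91 and 5.12 in control replicates 1 to 4. The groups overlapped through RictoraP2KO replicate 3, which was below control replicate 1. The difference was 0.55 (SE 0.197; limma adjusted p = 0.663), or 1.46-fold, with an interval from 0.10 to 1.00. Adgre1, the gene of the F4/80 antigen that defines mouse macrophages, stood at 6.41, 5.97, 5.57 and 5.96 against 6.00, 5.41, 5.20 and 5.60. Only RictoraP2KO replicate 1 exceeded every control. It differed by 0.43 (SE 0.205; limma adjusted p = 0.719).

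The rest of the identity genes had wider spread than difference. Csf1r, the receptor through which CSF1 keeps macrophages alive, differed by 0.20 (SE 0.171), at 6.86 ± 0.37 against 6.66 ± 0.14 (SD, n = 4). Itgam, which encodes CD11b, differed by 0.30, the signalling receptor gene Cd84 by 0.33 and Laptm5, a lysosomal membrane protein of blood cells, by 0.31. Aif1, the gene of the marker IBA1, differed by 0.08.

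Cd68, the gene of a glycoprotein of the macrophage lysosome, had the smallest difference of the identity genes. It stood at 6.94, 7.20, 6.58 and 6.93 in the RictoraP2KO arrays and at 7.29, 6.56, 6.86 and 6.92 in the controls. Control replicate 1 was the highest of all 8 arrays. The mean was 6.91 in both groups, a difference of 0.01 with an interval from -0.38 to 0.39. With the 3 arrays of foreign signal left out, the sign turned and the difference was -0.29.

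Lysozyme and lysosomal genes were above 0 in 3 of 3 cases, with a median of 0.21. Lyz2, which encodes the lysozyme of macrophages, was at 9.88, 9.51, 8.96 and 9.47 in the RictoraP2KO arrays against 9.24, 9.51, 8.94 and 9.20. Both groups had their lowest value in replicate 3, and control replicate 2 equalled RictoraP2KO replicate 2. The difference was 0.23 (SE 0.189; limma adjusted p = 0.821). Lyz1 differed by 0.21, but it is a near copy of Lyz2, so the signals of this gene pair are uncertain. Read position by position, the promoters match at 92 of the 100 bases before the start and at 152 of 250:
Lyz1, chr10:117292869-117292968, minus strand: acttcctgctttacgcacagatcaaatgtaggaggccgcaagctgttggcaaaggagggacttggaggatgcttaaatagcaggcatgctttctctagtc
Lyz2, chr10:117282273-117282372, minus strand: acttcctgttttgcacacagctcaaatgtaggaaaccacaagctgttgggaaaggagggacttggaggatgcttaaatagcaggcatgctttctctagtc

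Ctss encodes cathepsin S, which trims the invariant chain for antigen presentation. It was at 5.91, 5.91, 5.22 and 5.71 against 5.80, 5.43, 5.30 and 5.39. RictoraP2KO replicate 3 was the lowest of the 8 arrays. Ctss differed by 0.21 (SE 0.169; limma adjusted p = 0.821).

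Fc receptors bind the constant part of antibodies, and Fcer1g and Tyrobp encode the small adaptors through which they and related receptors signal. All 4 genes were above 0, with a median of 0.31. Fcgr3, an activating receptor for IgG, stood at 6.07, 5.90, 5.49 and 6.01 in RictoraP2KO arrays and at 5.70, 5.17, 5.42 and 5.69 in controls. Replicates 1, 2 and 4 of the RictoraP2KO group exceeded all controls and replicate 3 did not. The difference was 0.37 (SE 0.156; limma adjusted p = 0.668), with an interval from 0.02 to 0.73. Fcer1g was at 8.01, 7.89, 7.48 and 7.79 against 7.86, 7.25, 7.38 and 7.45, so that control replicate 1 lay within the RictoraP2KO values. It differed by 0.31 (SE 0.151; limma adjusted p = 0.726). Tyrobp, which encodes DAP12, the partner of TREM2, differed by 0.31 (SE 0.178). Fcgr1, the high-affinity IgG receptor CD64, differed by 0.07, and its sign turned without control replicate 3 (-0.04) and with the 3 arrays left out (-0.14).

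The genes of the 3 chains of C1q, the molecule that starts the classical complement cascade and that macrophages secrete, had differences close to each other. C1qb was at 8.72, 8.72, 8.31 and 8.70 in the RictoraP2KO arrays against 8.62, 7.89, 8.11 and 8.36 in controls. RictoraP2KO replicate 3 was below control replicates 1 and 4. The difference was 0.37 (SE 0.161; limma adjusted p = 0.686). C1qa was at 6.77, 6.74, 6.01 and 6.57 against 6.18, 6.07, 6.20 and 6.23. Its control values spanned little, and RictoraP2KO replicate 3 was below them all. The difference was 0.35 (SE 0.156; limma adjusted p = 0.689). C1qc differed by 0.32 (SE 0.145). Over the 8 arrays the gap between C1qb and C1qc deviated from its own mean by -0.12 to 0.12. C1qa had another pattern among the controls, at 6.07 to 6.23 where C1qb ran from 7.89 to 8.62.

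**Figure D3:**
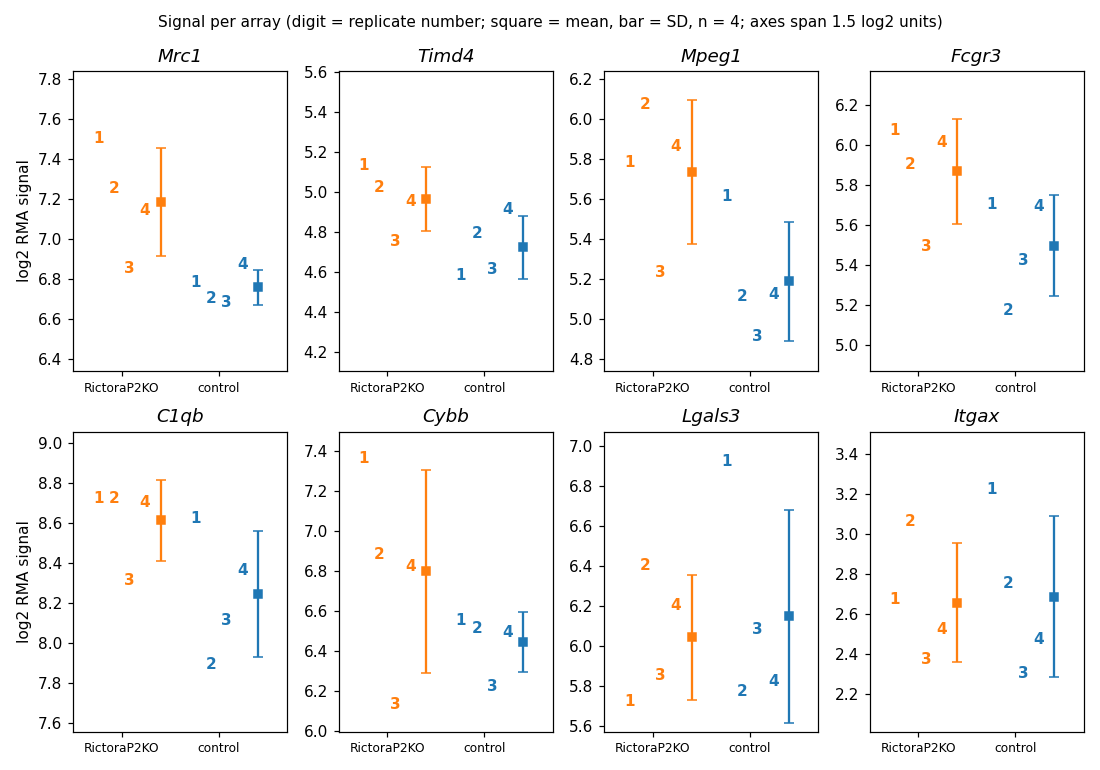
Each panel plots the log2 RMA signal of 1 gene per array, with the digit giving the replicate number and the square and bar the mean ± SD (n = 4); every axis spans 1.5 log2 units. Replicate 3 is low among the RictoraP2KO arrays of Mrc1, Mpeg1, C1qb and Cybb, and control replicate 1 is the highest array for Lgals3 and Itgax.

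Resident-type markers were 7 of 8 above 0, with a median of 0.26. Mrc1, the gene of the mannose receptor CD206, had the smallest unadjusted p of the 34 members. Its signal was 7.50, 7.25, 6.85 and 7.14 in RictoraP2KO replicates 1 to 4, and 6.78, 6.70, 6.68 and 6.87 in the controls. The 4 controls lay close together, and RictoraP2KO replicate 3 was just under the highest of them. The means were 7.18 ± 0.27 and 6.76 ± 0.08 (SD, n = 4). The difference was 0.43 (SE 0.125; limma adjusted p = 0.649), or 1.34-fold, with an interval from 0.14 to 0.71. It was 0.32 without RictoraP2KO replicate 1 and 0.34 with the 3 arrays of foreign signal left out.

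Timd4, the gene of the phosphatidylserine receptor TIM4 on long-lived resident macrophages, was at 5.13, 5.02, 4.75 and 4.95 against 4.58, 4.79, 4.61 and 4.91. Control replicates 2 and 4 exceeded RictoraP2KO replicate 3. It differed by 0.24 (SE 0.103; limma adjusted p = 0.681). Folr2, the folate receptor beta of resident cells, differed by 0.27 (SE 0.143) and Cd163, the scavenger receptor for haemoglobin, by 0.25 (SE 0.183). Lyve1, a receptor for hyaluronan, differed by 0.30 (SE 0.212). As for Cd163, RictoraP2KO replicate 4 was the highest array, at 8.09 for Lyve1 and 6.00 for Cd163. Control replicate 3 at 7.83 for Lyve1 exceeded RictoraP2KO replicate 1 at 7.39.

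Genes of alternative activation in this group were less even. Retnla, which encodes the secreted protein RELMα, differed by 0.33 (SE 0.228), at 8.27 ± 0.39 against 7.95 ± 0.37 (SD, n = 4). Clec10a, a galactose-type lectin gene, differed by 0.14, and RictoraP2KO replicate 1 alone stood out at 4.59. Without that array its difference was 0.01, the low end over all omissions of 1 array. Arg1, arginase of alternatively activated cells, was below the array median in every array and differed by -0.09.

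Activation markers were above 0 in 3 of 4 genes. Cd86, a costimulatory ligand for T cells, was at 3.64, 3.31, 3.25 and 3.43 against 3.57, 3.01, 2.88 and 2.91. Control replicate 1 stood above 3 of the RictoraP2KO arrays. It differed by 0.32 (SE 0.158; limma adjusted p = 0.728). Cd14, the co-receptor for lipopolysaccharide, was at 5.36, 4.95, 4.86 and 5.12 against 4.54, 4.70, 4.79 and 5.13. Control replicate 4 was the only control to exceed a RictoraP2KO array. The difference was 0.28 (SE 0.144; limma adjusted p = 0.732). Cybb, the catalytic subunit of the phagocyte NADPH oxidase, differed by 0.35 (SE 0.223), at 7.36, 6.88, 6.13 and 6.82 against 6.55, 6.51, 6.22 and 6.49. Its RictoraP2KO arrays included both the highest and the lowest value of the 8.

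Itgax, the gene of CD11c, was at 2.67, 3.06, 2.37 and 2.52 in RictoraP2KO arrays and at 3.22, 2.75, 2.30 and 2.47 in controls. Both groups were spread over the same range, and control replicate 1 was the highest. It differed by -0.03 (SE 0.212), with an interval from -0.51 to 0.45. The difference was 0.15 without control replicate 1 and 0.07 without RictoraP2KO replicate 3.

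Scavenger and lipid-associated genes were 2 above and 2 below 0. Msr1, the class A scavenger receptor, was at 4.99, 4.79, 4.36 and 4.72 against 4.61, 4.25, 4.67 and 4.41, and RictoraP2KO replicates 1, 2 and 4 exceeded all controls. It differed by 0.23 (SE 0.141; limma adjusted p = 0.767). Marco, a related scavenger receptor of alveolar and marginal zone macrophages, was between 2.93 and 3.11 in all 8 arrays. Control replicate 2, the array with lung epithelial signal, stood at 2.93. Its 4 RictoraP2KO values were 2.97, 3.11, 2.97 and 2.93 and its control values 3.09, 2.93, 3.10 and 2.97. It differed by -0.03 (SE 0.067; limma adjusted p = 0.950).

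Trem2, the lipid receptor of lipid-associated macrophages, differed by 0.03, with an interval from -0.21 to 0.26. Lgals3, which encodes galectin-3, was at 5.72, 6.40, 5.85 and 6.20 in RictoraP2KO arrays and at 6.92, 5.77, 6.08 and 5.82 in controls. RictoraP2KO replicate 1, the highest array for most members, was the lowest for Lgals3. It differed by -0.10 (SE 0.258), with an interval from -0.69 to 0.48, and by 0.15 without control replicate 1.

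Resident were then compared with inflammatory markers, the latter being Itgax, Cd14, Cd86, Cybb, Fcgr1, Trem2, Lgals3 and Marco. The inflammatory genes had a median difference of 0.05, with 5 of 8 above 0, against 0.26 for the resident type, a gap of 0.21. That gap is between medians. The mean difference was 0.11 for the inflammatory and 0.23 for the resident list, and the values per array are means too. These were uneven over the arrays. Per array, the resident mean deviation was 0.33, 0.15, -0.17 and 0.16 in RictoraP2KO replicates 1 to 4 and -0.15, -0.15, -0.13 and -0.03 in the controls. The inflammatory mean deviation was 0.15, 0.17, -0.16 and 0.07 in the RictoraP2KO arrays, and 0.22, -0.15, -0.18 and -0.12 in the controls.

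Control replicate 1 had the highest inflammatory mean of all arrays and a resident mean of -0.15. It was the highest array for 3 of the 8 inflammatory genes, Itgax, Fcgr1 and Lgals3, and the lowest for Cd14. On the narrower inflammatory list described next it stood at 0.11, below RictoraP2KO replicates 1 and 2 at 0.39 and 0.18. In it resident minus inflammatory stood at -0.38, with the remaining 7 arrays at -0.02 to 0.18. This control was the highest of the 8 arrays for Cd68, Aif1, Fcgr1, Itgax and Lgals3. Lgals3 stood 1.03 above the mean of the other controls there and Itgax 0.72. Without this array the medians were 0.22 for resident and 0.17 for inflammatory genes, a gap of 0.05. With narrower lists, Mrc1, Cd163, Lyve1, Folr2 and Timd4 against Itgax, Cd14, Cd86 and Cybb, the gap between medians was -0.03. The mean differences of these narrower lists were 0.30 for resident and 0.23 for inflammatory genes. In control replicate 1 resident minus inflammatory on the narrower lists was -0.36, with the remaining arrays at -0.09 to 0.21. Among genes above the array median the 2 medians were 0.27 for 7 resident and 0.15 for 4 inflammatory genes.

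**Figure D4:**
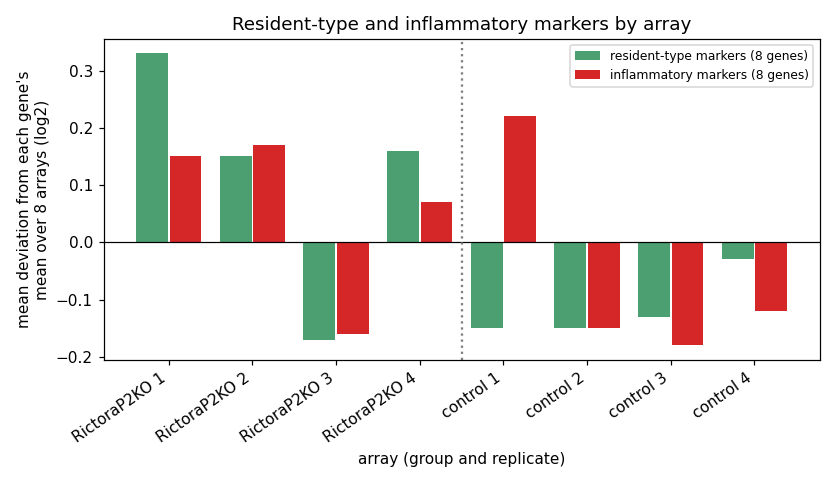
Bars give the mean deviation of 8 resident-type and 8 inflammatory genes from each gene's mean over the 8 arrays, on the log2 scale, for each array. The 2 bars go the same way in 7 arrays and opposite ways in control replicate 1 (-0.15 and 0.22).

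Other genes of the macrophage pathway gave 0 calls after limma adjustment. Of 15 measured transcription factors of myeloid cells, 13 were above 0, with a median of 0.10. Spi1, which encodes PU.1, differed by 0.30 (SE 0.150), at 5.09 ± 0.19 against 4.79 ± 0.29 (SD, n = 4). Irf4, a factor of alternatively activated macrophages that fat cells express too, differed by 1.47 (SE 0.558; limma adjusted p = 0.668). Its control replicate 1 was at 5.81 and the other controls between 7.53 and 8.31. Its RictoraP2KO replicate 4 was at 10.03 and the rest of that group between 8.33 and 8.53. Bhlhe40, also a clock-linked repressor, differed by -0.74 (SE 0.315).

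Of 18 genes of macrophage growth and recruitment, 14 were above 0, with a median of 0.07. The growth factors differed little, Csf1 by 0.04 and Il34 by -0.09. Ccl8, a monocyte-attracting chemokine, differed by 0.58 (SE 0.212; limma adjusted p = 0.668), Ccr2, the receptor of recruited monocytes, by 0.25 and Il4 by 0.12. The Il4 value rests on weak signal, at 2.02 in RictoraP2KO arrays and 1.90 in controls. Of 8 monocyte genes 5 were above 0, with a median of 0.01. F13a1, coagulation factor XIII of monocytes and resident macrophages, differed by 0.46 (SE 0.143; limma adjusted p = 0.651) and Plac8 by 0.44. Both group means of Plac8, 3.57 in RictoraP2KO arrays and 3.13 in controls, lay below the array median. Of 11 genes of lipid-associated macrophages 6 were above 0, with a median of 0.03. Fabp5 differed by -0.51 (SE 0.196; limma adjusted p = 0.668), Cd63 by 0.21 and Apoe by 0.26, and several of that list, such as Lpl, Cd36 and Plin2, are also genes of fat cells.

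Some lists of other cells had an array order like that of the macrophage genes. The 10 general leukocyte genes were all above 0, with a median of 0.33, led by Lcp2 (0.50), Rac2 (0.39) and Was (0.27). Their mean deviation was 0.24, 0.43, -0.22 and 0.19 in RictoraP2KO replicates 1 to 4, and between -0.37 and 0.00 in controls. Mast cell genes followed a like order, at 0.53, 0.20, -0.22 and 0.31 against -0.40 to -0.05, and neutrophil genes a different one, at 0.00, 0.38, 0.07 and 0.16 against -0.28 to -0.08. B cell genes, 9 of 9 above 0, peaked in RictoraP2KO replicate 2 at 0.90, where the other RictoraP2KO arrays ran from -0.32 to 0.10 and controls from -0.40 to 0.12. T cell genes peaked in the same array at 0.50 and lymph node genes at 0.44. In RictoraP2KO replicate 1, the array highest for most macrophage genes, single fat genes stood out. The mean of brown fat genes was -0.61 there, with Elovl3, a fatty acid elongase gene, at 6.84 against 8.29 to 10.75 elsewhere. The mean of adipocyte genes was 0.27, with the leptin gene Lep at 5.81 against 2.74 to 3.75. Adipoq, Cidec and Lipe were each at their lowest of the 8 arrays, at 10.85, 10.96 and 10.88, but by small margins. The next lowest arrays were at 10.86, 11.03 and 10.89. Fabp4 was at its highest in that replicate, at 11.79. The part of these cells and tissues in the macrophage values was not tested. Genes of alveolar macrophages, 1 of 8 above 0, stood at 0.10 in control replicate 2 and at 0.09 in control replicate 3. That list includes Cidec, also counted as an adipocyte gene, and 4 of the 8 had a mean above the array median. So its mean is a poor reading of alveolar macrophages in fat.

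**Figure D5:**
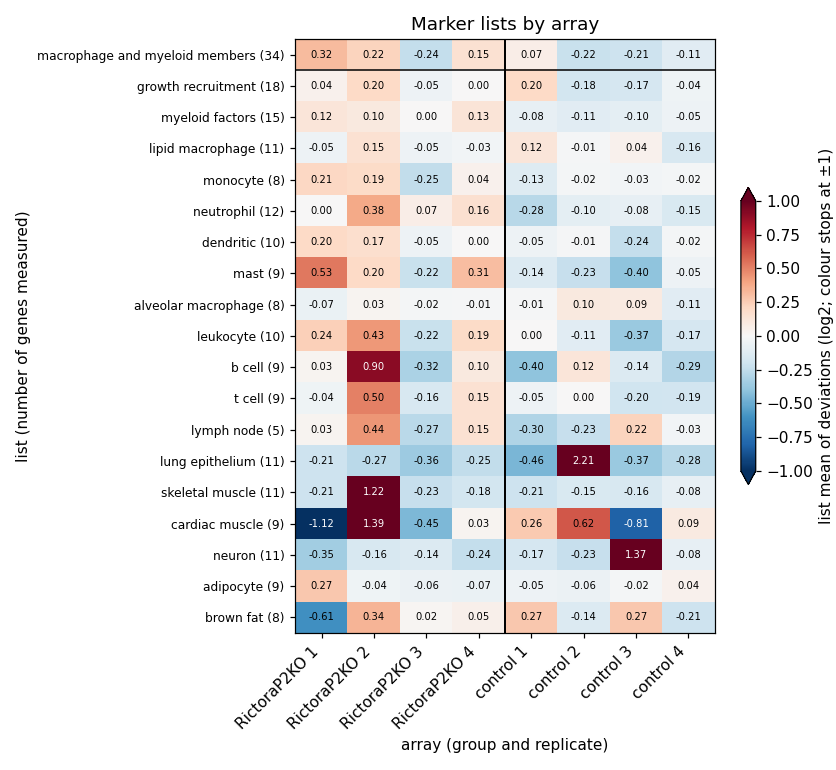
Each cell gives the mean deviation of a marker list from its mean over the 8 arrays, on the log2 scale, with lists in rows and arrays in columns. The macrophage row at the top runs from -0.24 to 0.32, and lung, muscle and neuron lists each exceed 1 in single arrays.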

How the data were processed

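The authors deposited 1 table of log2 signals for 28371 probe sets and 8 arrays (Affymetrix Mouse Gene arrays), which the submitters' processing notes ascribe to RMA and to Affymetrix Power Tools, version 1.10.2. RMA makes the arrays' distributions alike, so a change in total RNA would not be seen. No genome build was needed for the signals, and none is stated in the labels. Values ran from 1.04 to 12.52.

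Probe sets with exactly 1 symbol in the platform annotation (21158) named 18782 genes, each by its probe set of highest mean. limma 3.58.1 in R 4.3.3 (lmFit, eBayes, two-sided) was fitted to all probe sets without covariates, with Benjamini-Hochberg adjustment over all 28371 and a threshold of 0.05. The labels do not say that each sample is a separate animal, so p-values measure the spread between samples, and the number of arrays limits precision.

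The members, the role groups and the 18 lists of other genes were chosen with earlier results of these data known. The rule names every member, gives array values for members with an unadjusted p under 0.05 and for the 2 smallest p in each role, and up to 3 genes per other list. Array values of Cd68, Cybb, Itgax and Lgals3, and Csf1, Il34, Lpl, Cd36, Plin2, Adipoq, Cidec, Lipe, Fabp4, Elovl3 and Ucp1, were added after values were seen. Alternatives tried were the replicate number as a block, array weights, limma-trend, robust variances, a filter on dim probe sets, median centring, a repeated quantile normalisation, omission of arrays, other thresholds, narrower lists and the mean over a gene's probe sets.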

Additional observations from a re-analysis of the deposited data

Results flagged for a closer look

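Within groups of 4 arrays, 10 of 128 sets of values tested had an extreme that lay farther from the rest than Dixon's 95% limit allows for the gap over the range. Chance alone passes that limit in about 5% of such groups. Among members, Aif1 stood at 3.75 in control replicate 1, where the other controls ran from 3.21 to 3.26. C1qb stood at 8.31 in RictoraP2KO replicate 3 against 8.70 to 8.72 in the rest of its group, and Clec10a at 4.59 in RictoraP2KO replicate 1 against 4.04 to 4.09.

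Among lists, the mean of the inflammatory genes stood at 0.22 in control replicate 1, where the other controls ran from -0.18 to -0.12. Of the 8 genes, 3 were at their highest there and Cd14 at its lowest. The monocyte genes stood at -0.13 in the same array, the lowest control, against -0.03 to -0.02. Genes of lipid-associated macrophages stood at 0.15 in RictoraP2KO replicate 2 against -0.05 to -0.03. Foreign tissue gave the widest gaps. Lung epithelial genes stood at 2.21 in control replicate 2 against -0.46 to -0.28, skeletal muscle genes at 1.22 in RictoraP2KO replicate 2 against -0.23 to -0.18, and neuron genes at 1.37 in control replicate 3 against -0.23 to -0.08. The mean of adipocyte genes stood at 0.27 in RictoraP2KO replicate 1 against -0.07 to -0.04. Lep stood at 5.81 there, against 2.74 to 3.75 in the other 7 arrays. Adipoq, Cidec and Lipe were at their lowest of the 8 by small margins, and Fabp4 was at its highest.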

How the results depend on the processing

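No member passed an adjusted p under 0.05 in any setting run, and none passed 0.1. The smallest was 0.267. With the threshold set on the unadjusted p, 5 members passed, or 14.7%, against 7.27% of all probe sets. Over the omissions of 1 array the count past the adjusted threshold stayed 0, the members above 0 ran from 28 to 32, the median difference from 0.17 to 0.40 and the gap between resident and inflammatory genes from 0.05 to 0.30. The narrower lists gave a gap of -0.03 between medians, where the mean differences were 0.30 for resident and 0.23 for inflammatory genes. Quantile normalisation again and median centring moved no sign, but RMA had already made the arrays' distributions alike, so little could move. Limma-trend, robust variances, the block and the filter on dim probe sets cannot change a difference. Nor can the mean over probe sets, as each member has 1.

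The sign held for 28 members in every setting run and turned for 6, each time with arrays left out. Over omissions of 1 array the differences ran from -0.11 to 0.13 for Cd68, -0.06 to 0.09 for Trem2, -0.23 to 0.15 for Lgals3, -0.16 to 0.15 for Itgax and -0.04 to 0.20 for Fcgr1. With the 3 arrays of foreign signal left out, differences were -0.29 for Cd68, -0.12 for Aif1, -0.14 for Fcgr1 and -0.02 for Trem2. The cause was not tested. Without dim probe sets, Aif1, Fcgr1, Arg1, Itgax, Cd86 and Marco were not tested.

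Over all probe sets, same-numbered arrays of the groups did not deviate together, with correlations of -0.154, -0.027, 0.034 and 0.087. With 4 samples per group, such correlations cannot exclude a pairing or a shared batch. With the replicate number as a block, the SE fell for some members and rose for others. It went from 0.205 to 0.069 for Adgre1 and from 0.258 to 0.299 for Lgals3. With the replicate block 10 members had an unadjusted p under 0.05, all higher, against 3.25% of all probe sets, and 0 passed after adjustment. The block left the median at 0.27, and the probe sets called over the whole array went from 1 to 0.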

Other observations

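Of the 18 lists of other genes, mast cell genes had the largest median, at 0.39, with 8 of 9 above 0. Mcpt4, a mast cell chymase, stood at 6.40 ± 0.53 in RictoraP2KO arrays and 5.43 ± 0.48 in control arrays (SD, n = 4), and so differed by 0.98 (SE 0.296; adjusted p = 0.651, limma). Cpa3, mast cell carboxypeptidase, differed by 0.73 (SE 0.265) and the tryptase gene Tpsb2 by 0.55 (SE 0.215). Neutrophil genes were 11 of 12 above 0 with a median of 0.23, and 2 of the 12 had a mean above the array median. S100a9 differed by 0.42, Retnlg by 0.61 and S100a8 by 0.65. None of these genes passed after adjustment.

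Dendritic cell genes were 9 of 10 above 0 with a median of 0.17, with Ccr7 at 0.26, Zbtb46 at 0.15 and Batf3 at 0.14. B cell genes had a median of 0.32, where Ighm differed by 0.91, Cxcr5 by 0.23 and Blk by 0.21. Ighm was at 6.42 in RictoraP2KO replicate 2 and at 3.66 to 4.50 in every other array. T cell genes had one of 0.20, where Lat differed by 0.40, Cd4 by 0.36 and Cd5 by 0.21. For lymph node genes the median was 0.23, with Ccl19 at 0.28, Glycam1 at 0.23 and Cr2 at 0.08. Many of these differences rest on weak signal. Means above the array median were found for 4 of 10 dendritic, 4 of 9 B cell, 2 of 9 T cell and 2 of 5 lymph node genes.

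Alveolar macrophage genes had a median of -0.03, with Il18 at 0.11, Chil3 at -0.18 and Siglecf at -0.07. Medians were -0.56 for lung epithelium (Sftpd -0.56, Abca3 -0.14, Sftpc -1.91), 0.32 for skeletal muscle (Myoz1 0.35, Pvalb 0.52, Myh1 0.36), -0.09 for cardiac muscle (Myl3 -0.23, Mybpc3 -0.15, Myl2 0.04) and -0.34 for neurons (Nefm -0.20, Chga -0.25, Elavl4 -0.12). They were 0.01 for adipocytes (Pparg -0.21, Pnpla2 0.04, Lep 0.45) and -0.09 for brown fat (Cox7a1 -0.13, Prdm16 -0.35, Cidea -0.05). Some of these differences rest on 1 array. Sftpc was at 9.20 in control replicate 2 and at 1.77 to 1.92 elsewhere. Myoz1, Pvalb and Myh1 stood out in RictoraP2KO replicate 2, at 3.91, 3.94 and 3.44, and Lep in RictoraP2KO replicate 1, at 5.81.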
